A study of Mus musculus with 24 samples.

Results

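The mRNAs of 9 dendritic and postsynaptic density genes, Camk2a, Ddn, Map2, Shank1, Shank2, Shank3, Dlg4, Dlgap3 and Ppp1r9b, were compared between heavy polysomal fractions and whole lysates of the mouse striatum. They were taken by symbol from a table of reads per gene, in which all 9 had a row among 24079 genes, and the rule was a set of symbols of genes known in dendrites and at the postsynaptic density, not a measured value, although earlier results of these data were known when it was set. All 9 passed the filter of at least 15 reads over the libraries of each comparison. The study asked whether phosphorylation of ribosomal protein S6 (rpS6), a component of the small ribosomal subunit, affects which mRNAs are translated in the striatum.

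Lysates came from the nucleus accumbens (Acb, the ventral striatum) or the dorsal striatum (DS) of rpS6 knockin mice or of wild-type littermates. In the knockin mice the serines of rpS6 that can be phosphorylated are replaced in every cell, from the germline on, so that differences between genotypes are not limited to 1 cell type or to the adult brain. Both genotypes share a mixed genetic background, and mice of both sexes were used, without further treatment and with no age stated for these samples. From each lysate a part was kept for RNA extraction (whole lysates). Another part was run on a sucrose gradient, from which RNA of fractions with about 4 or more ribosomes was taken (heavy polysomal fractions). This gave 8 groups of 3 biological replicates, 24 libraries in all, in which each replicate pooled tissue from several mice. Per the methods, a replicate joined heavy polysomal fractions of more than 1 sample, and a lysate below stands for the material of 1 replicate. Since single codons are changed in the knockin, reads per gene cannot check the genotype labels.

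Neurons carry a set of mRNAs out along their dendrites and can translate them close to synapses, which lets a synapse renew its proteins locally. The postsynaptic density is the protein mesh under the membrane of excitatory synapses: scaffold proteins of the Dlg, Dlgap and Shank families stack upon each other there and tie glutamate receptors to the actin of the spine. Camk2a is the textbook example of a dendritic mRNA and encodes a subunit of CaMKII, a kinase needed for long-term potentiation. In the striatum most of these synapses lie on the spines of medium spiny neurons, where cortical and thalamic axons end.

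The letters around the start codon are shown for 4 members, Map2 and Shank3, which were called lower in heavy polysomal fractions in 3 of 4 comparisons, and Dlg4 and Dlgap3, which were called lower in 0. Camk2a, Shank1 and Ppp1r9b, also called lower in 3 or 4, are not shown. With a trend on coding length removed, Map2 and Shank3 were not called lower in any comparison. Each line gives 9 bases before the start codon, the start codon in capitals and 9 bases after it, 5′ to 3′, as read from mm10.
Map2: atctgaaagATGgccgacgag
Shank3: ccggggccgATGcagctaaac
Dlg4: agaagagagATGtcccagaga
Dlgap3: gctgaggccATGaggggttac
The base 3 before the start codon was a purine in 8 of 9 members, all but Shank3, as it was in 84.64% of 19472 transcripts. Camk2a and Map2 had a G right after the start codon, which 49.84% of these transcripts share.

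Camk2a lies on mm10 at chr18:60925618-60988152 on the plus strand, Map2 at chr1:66175273-66442583 (plus), Ddn at chr15:98803777-98809490 (minus), Dlg4 at chr11:70016942-70047522 (plus), Dlgap3 at chr4:127169204-127237022 (plus) and Ppp1r9b at chr11:94991035-95006899 (plus). The Shank genes lie at chr7:44310253-44360572, chr7:144001928-144424494 and chr15:89499623-89560261, all on the plus strand. In the transcript with the longest coding sequence in GENCODE M21, coding sequences ran from 1467 bases in Camk2a, 2130 in Ddn, 2301 in Dlg4, 2451 in Ppp1r9b and 2931 in Dlgap3 to 5415 in Shank3, 5484 in Map2, 5523 in Shank2 and 6501 in Shank1. The members thus fall into a shorter and a much longer group. The microRNA genes Mir6982 and Mir7220, both in the count table, lie within Camk2a on its strand, and reads shared with them were not counted for either. The 5′ untranslated region held 10 ATG triplets ahead of the start codon in Dlgap3, 5 in Map2, 4 in Dlg4, 3 in Ppp1r9b and 1 in Shank1, and 0 in the other 4, whereas 50.68% of 20383 transcripts held at least 1. In the Shank3 transcript used, that region was only 9 bases long, which leaves little room for an ATG.

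Libraries held 11109431 to 34703044 reads assigned to genes in heavy polysomal fractions and 9280589 to 20259509 in whole lysates, of which 0.897 to 3.85% and 15.2 to 26.1%, respectively, came from the non-coding RNA Bc1. The members had from 161 reads (Shank2) to 30860 reads (Dlg4) in a library. The medium spiny neuron markers that define the tissue (8 of 9 listed were measured by the symbol used) summed to 3705 to 6960 CPM (reads scaled to library size with TMM factors) in every library. Oligodendrocyte markers summed to 2765 to 5776 CPM, and endothelial markers to 3.85 to 14.3 CPM. One lysate stood apart. Across 11736 genes, the heavy to total ratio was lower for longer coding sequences, with a Spearman rho (over genes, not independent replicates) of -0.650 to -0.298 in 11 lysates, but in replicate 3 of knockin Acb rho was -0.033. In the main fits, values without its heavy library are given with the calls of members that it touches.

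Per kilobase of transcript, which allows levels of different genes to be set side by side, Camk2a was the most abundant member in whole lysates of wild-type Acb, with 295 ± 44.4 CPM per kb (mean ± SD, n = 3). Dlg4 followed with 173 ± 0.685, Map2 with 157 ± 6.23 and Ddn with 151 ± 8.07 CPM per kb, of which Map2 and Ddn overlapped. Ppp1r9b had 105 ± 7.89 CPM per kb. The other 4 were far lower: Dlgap3 had 23.4 ± 4.71, Shank3 12.1 ± 2.57, Shank1 5.47 ± 1.62 and Shank2 3.84 ± 1.64 CPM per kb, and Shank1 and Shank2 overlapped. This order was kept from Ppp1r9b (rank 5) down to Shank2 (rank 9) in each of the 8 groups. It changed at the top. Camk2a ranked first in whole lysates of all 4 region and genotype sets, while Dlg4 ranked first in heavy polysomal fractions of wild-type Acb, with 202 ± 19.1 against 165 ± 14.3 CPM per kb of Camk2a, with no overlap. In heavy polysomal fractions of the DS, Dlg4 also ranked first in both genotypes but overlapped Camk2a (296 ± 52.7 against 268 ± 46.9 CPM per kb in wild-type mice). In knockin Acb, Camk2a stayed ahead of Dlg4 in heavy polysomal fractions (247 ± 60.7 against 146 ± 28.1 CPM per kb). These levels depend on the transcript model, since a gene may use several.

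**Figure D1:**
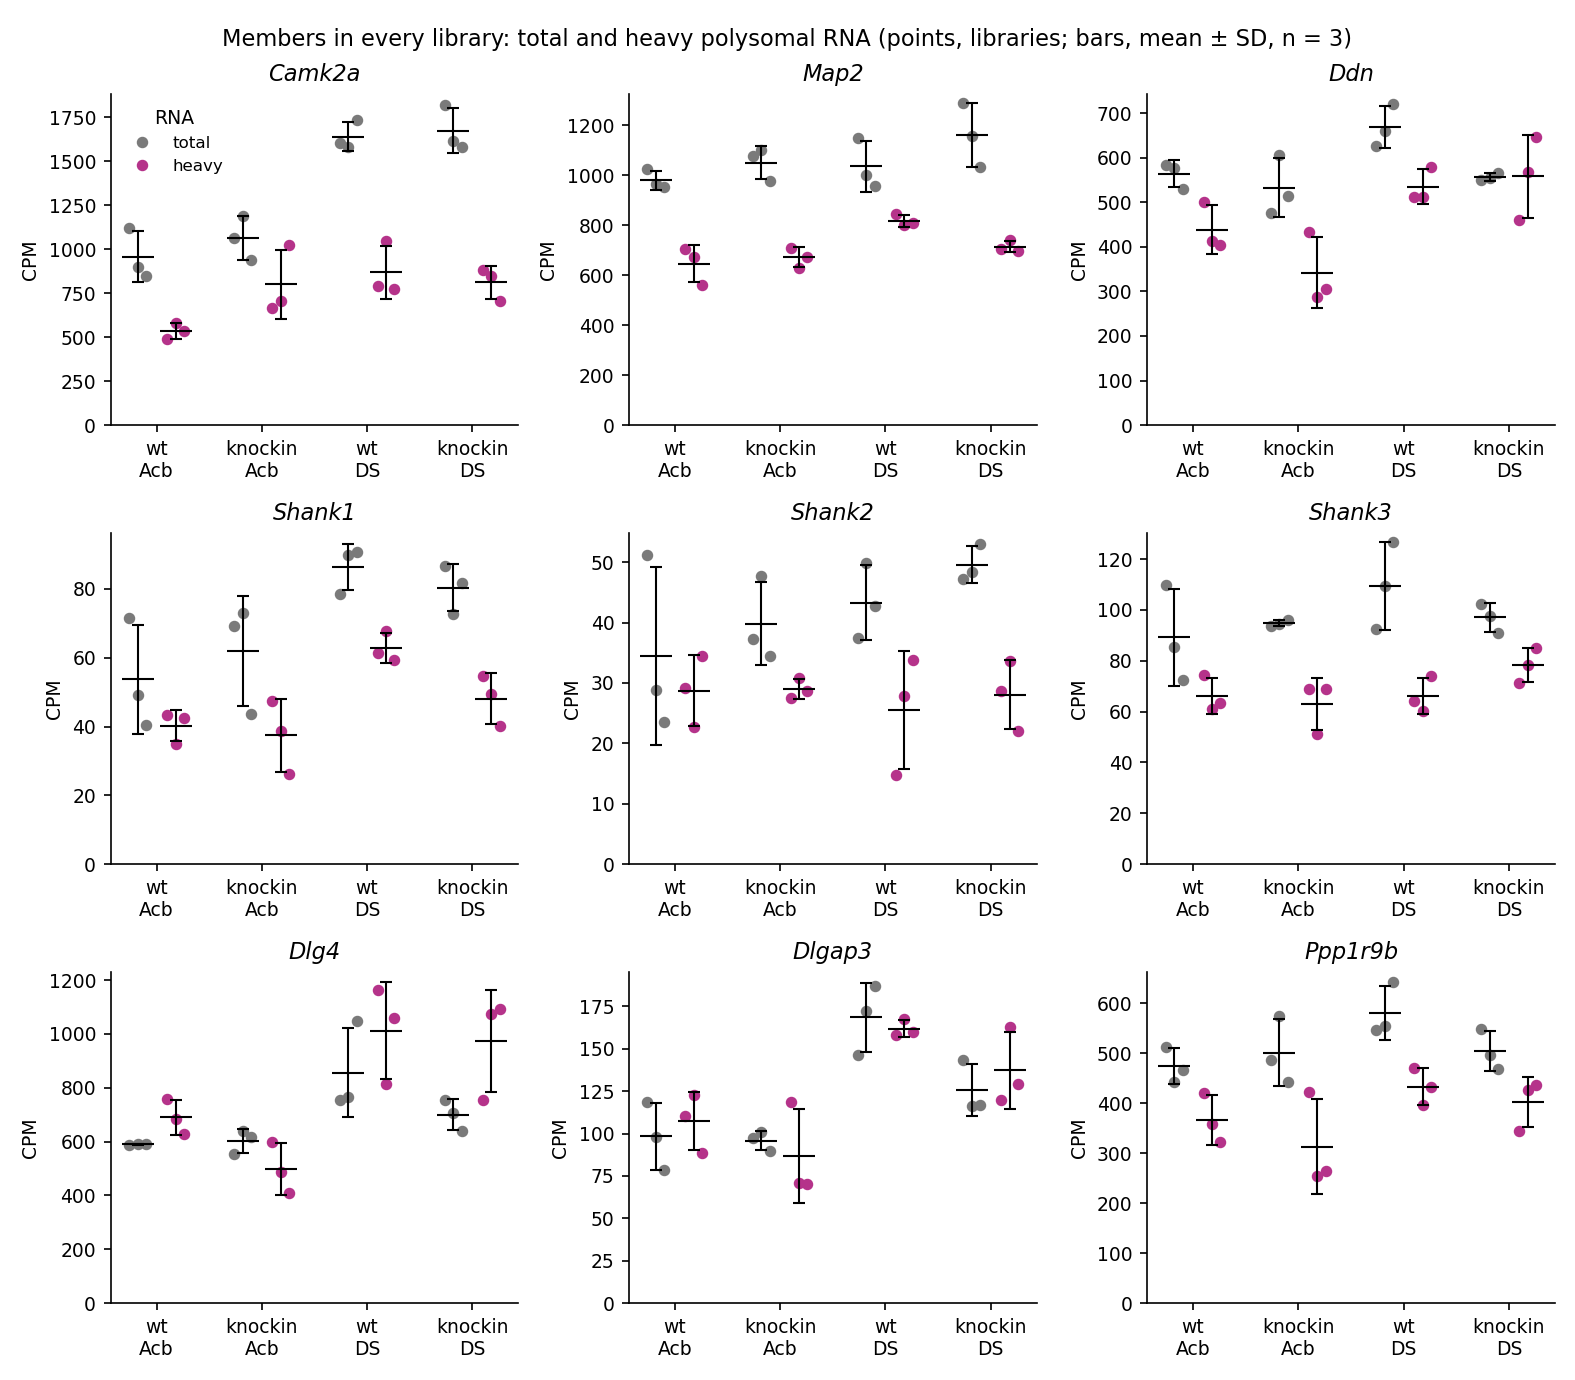
CPM (linear axis) of the 9 members in each of the 24 libraries, 1 panel per gene, by region, genotype and kind of RNA, with 3 libraries a group. Heavy polysomal fractions sit below whole lysates in most panels, with Camk2a at 488 to 1044 against 850.5 to 1818 CPM outside knockin Acb, while Dlg4 and Dlgap3 overlap or sit higher.

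Heavy polysomal fractions and whole lysates were compared within each region and genotype. Each library is scaled to its own reads, so a difference is relative to the other mRNAs. It does not give the share of an mRNA that is on polysomes. In wild-type Acb, 5 of 9 members were lower in heavy polysomal fractions (Camk2a, Map2, Ddn, Ppp1r9b and Shank3) and 0 were higher, where 25.9% of 16043 genes were called, 12.9% lower and 13.0% higher (adjusted p under 0.05, edgeR with Benjamini-Hochberg adjustment over all genes tested). In wild-type DS, 5 were lower (Camk2a, Ppp1r9b, Shank1, Shank2 and Shank3), where 24.3% of 15614 genes were called, 11.5% lower and 12.8% higher. In knockin Acb, 5 were lower (Ddn, Map2, Ppp1r9b, Shank1 and Shank3), where 17.2% of 15721 genes were called, 9.50% lower and 7.70% higher. In knockin DS, 5 were lower (Camk2a, Map2, Shank1, Shank2 and Ppp1r9b) and 1, Dlg4, was higher, where 28.6% of 15912 genes were called, 14.8% lower and 13.8% higher.

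Ppp1r9b was called lower in all 4 sets, Camk2a, Map2, Shank1 and Shank3 in 3, and Ddn and Shank2 in 2. Dlgap3 was called in 0 of 4. With all 24 libraries in 1 fit, Ppp1r9b was lost in wild-type Acb (adjusted p = 0.0719, edgeR) and in knockin DS (adjusted p = 0.117), Ddn in wild-type Acb (adjusted p = 0.0616) and Shank1 in wild-type DS (adjusted p = 0.0803), while Camk2a in knockin Acb and Map2 in wild-type DS were gained. The median log2 fold change of the 9 members was -0.42 in wild-type Acb, -0.61 in knockin Acb, -0.42 in wild-type DS and -0.36 in knockin DS, against medians over all genes tested of 0.030, 0.0091, 0.0010 and 0.027. The 4 sets share no library with each other. These medians over all genes are not matched for coding length, and members are set beside genes of like length below. Without overlap between the fractions, 4 members lay lower in heavy polysomal fractions of wild-type Acb (16.2% of genes did), 5 in knockin Acb (14.8%), 7 in wild-type DS (18.6%) and 6 in knockin DS (18.8%). Leaving out 1 library at a time gave 2 to 6 called members in wild-type Acb, 2 to 5 in knockin Acb, 2 to 7 in wild-type DS and 5 to 7 in knockin DS, and the libraries that decide a call are named with each gene. Without heavy replicate 3 of knockin Acb, from the lysate that stood apart, 5 members were also called lower in that set, with Camk2a in place of Shank1. The log2 fold changes were then -0.67 for Camk2a, -0.60 for Ddn, -0.69 for Map2, -0.61 for Ppp1r9b and -0.70 for Shank3 (adjusted p from 0.00041 to 0.0197, edgeR). Shank1 stood at -0.57 (adjusted p = 0.0864, edgeR).

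Markers of the tissue's cells moved with the kind of RNA as well. The 8 medium spiny neuron markers summed to 5235 to 6424 CPM in heavy polysomal fractions and 3784 to 4100.3 CPM in whole lysates of wild-type Acb, and oligodendrocyte markers to 4691 to 5776 and 3627 to 4199 CPM. In wild-type DS, medium spiny neuron markers summed to 5459 to 6151 against 4165 to 4709 CPM and oligodendrocyte markers to 3695 to 3925 against 2798 to 3465 CPM. Both sums were higher in heavy polysomal fractions without overlap in all 4 sets, knockin mice included, opposite to most members. Single markers differed. In wild-type Acb 2 medium spiny neuron markers were called lower and 4 higher, and 2 oligodendrocyte markers lower and 3 higher, where 12.9% of genes were lower and 13.0% higher. Astrocyte markers went the other way in wild-type DS, at 1117 to 1531 against 1702 to 1822 CPM, and overlapped in the other sets. Microglial sums were higher in all 4 sets. The part of these cells in the members' differences was not tested.

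**Figure D2:**
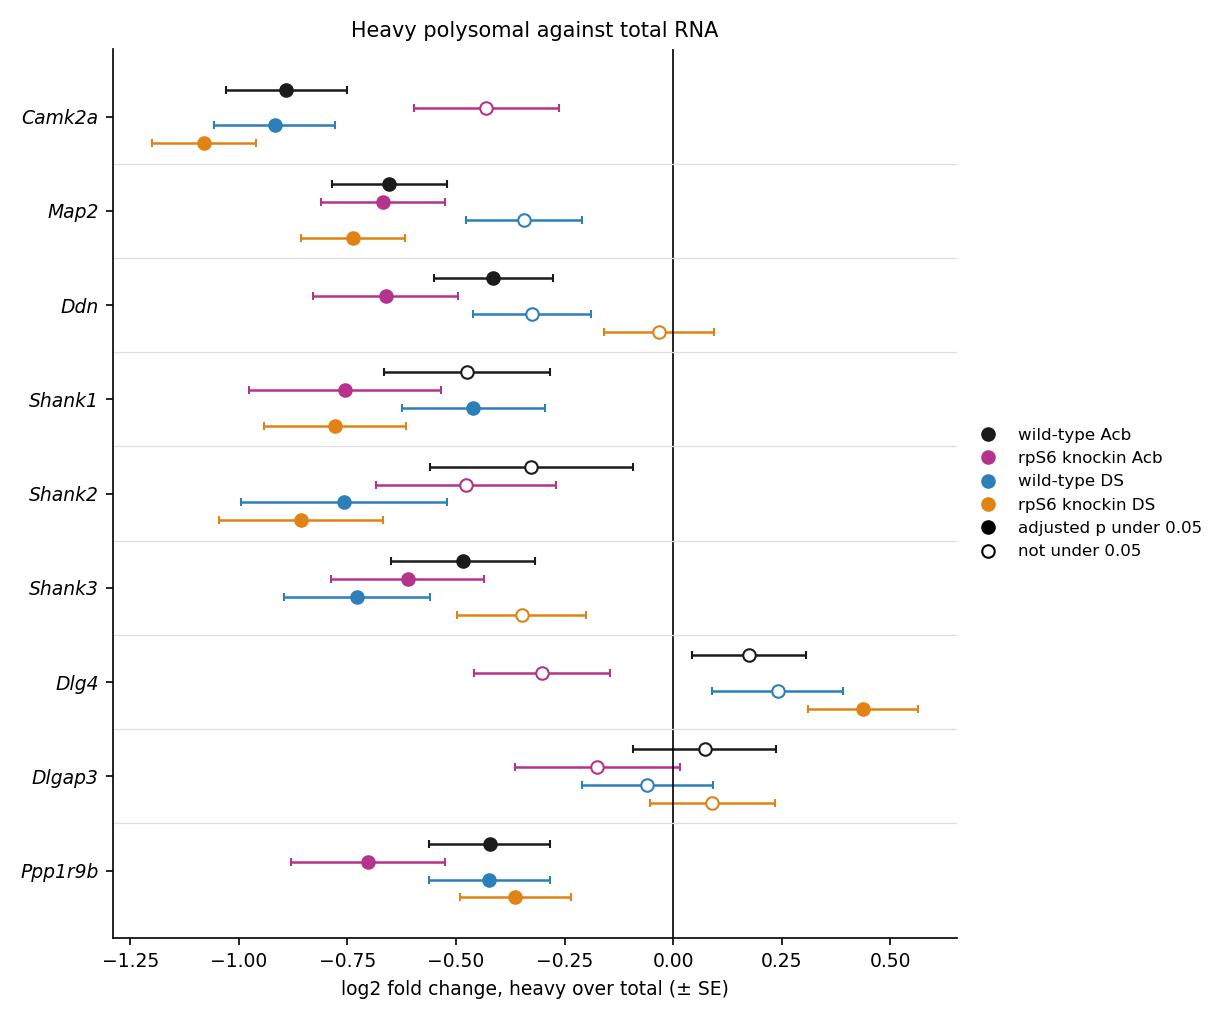
Log2 fold change of heavy polysomal fractions against whole lysates for the 9 members in the 4 region and genotype sets, with bars of 1 SE from edgeR and filled points where the adjusted p was under 0.05. Camk2a lies lowest in 3 sets (-0.89 to -1.08) and Dlg4 is the 1 member called above 0, at 0.44 in knockin DS.

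Camk2a, the kinase subunit, had the lowest median heavy to total ratio of the members. In wild-type Acb it stood at 1121, 901 and 850.5 CPM in the 3 whole lysates (replicates 1, 2 and 3, in this order throughout) and at 488, 581 and 538 CPM in the heavy polysomal fractions. In wild-type DS the values were 1603, 1582 and 1736 CPM against 789, 1044 and 774 CPM, and in knockin DS 1818, 1617 and 1584 CPM against 879, 849 and 705 CPM. In these 3 sets every heavy library lay below every whole lysate. The log2 fold changes were -0.89 ± 0.14, adjusted p = 2.75e-05, in wild-type Acb, -0.92 ± 0.14, adjusted p = 1.06e-05, in wild-type DS and -1.08 ± 0.12, adjusted p = 2.54e-10, in knockin DS (± SE, edgeR with Benjamini-Hochberg adjustment), and each stayed called with any 1 library left out.

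Knockin Acb differed in 1 library. Camk2a had 1062, 1190.4 and 941 CPM in whole lysates and 666, 708 and 1026 CPM in heavy polysomal fractions. Replicate 3, which stood apart, was thus the only lysate of 12 whose heavy library had a higher CPM of Camk2a than its total library. The ratio was 1.09, against 0.435 to 0.660 in the other 11. The log2 fold change was -0.43 ± 0.17, adjusted p = 0.077 (edgeR). It was -0.67 ± 0.12, adjusted p = 0.000778, without that heavy library, and -0.46 ± 0.16, adjusted p = 0.0246, when the heavy and total library of a lysate were paired as a block (edgeR, adjusted p from 0.0068 to 0.0776 over the alternatives). Over the 12 lysates, the heavy to total ratio of Camk2a had a median of 0.560.

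Map2 encodes the microtubule-associated protein that marks dendrites, and its mRNA is found in them. It was lower in the heavy polysomal fraction than in the whole lysate in 12 of 12 lysates, with a median ratio of 0.681. In wild-type Acb it stood at 1024, 963 and 952 CPM in whole lysates and 704, 672 and 561 CPM in heavy polysomal fractions, and in knockin Acb at 1075, 1101 and 975 against 709.5, 630.0 and 675 CPM. In knockin DS it stood at 1290.5, 1156 and 1034 against 704, 740.0 and 699 CPM. The fractions did not overlap in any of these sets, and the log2 fold changes were -0.65 ± 0.13, adjusted p = 0.00053, -0.67 ± 0.14, adjusted p = 0.00167, and -0.74 ± 0.12, adjusted p = 1.94e-06, in this order, kept in all fits with a library left out (edgeR). In wild-type DS the difference was smaller, at 1151, 1002 and 956 against 846, 799.5 and 807 CPM. There too the fractions did not overlap, but the log2 fold change of -0.34 ± 0.13, adjusted p = 0.0587, missed the threshold, and of the fits with a library left out only that without heavy replicate 2 called it lower (-0.33, edgeR). Map2 was also called lower there by DESeq2 (-0.35, adjusted p = 0.0100). With edgeR it was called lower with all 24 libraries in 1 fit (adjusted p = 0.0398) and with Bc1 left out (adjusted p = 0.0404).

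Ddn encodes dendrin, a protein of dendrites and the postsynaptic density whose mRNA is likewise dendritic. In Acb it was lower in heavy polysomal fractions of both genotypes, with 584, 578 and 529 against 501, 412 and 403 CPM in wild-type and 477, 605 and 515 against 434, 287 and 306 CPM in knockin mice. Heavy values lay below all whole lysates in both. The log2 fold change was -0.41 ± 0.14, adjusted p = 0.0246, in wild-type Acb, and the call was lost without heavy replicate 3 (-0.35), total replicate 1 (-0.39) or total replicate 2 (-0.40), whereas it was -0.66 ± 0.17, adjusted p = 0.00642, in knockin Acb, lost without total replicate 2 (-0.58) (edgeR). In the DS no difference was called in the main fits. Ddn had 627, 659 and 721 against 512, 512 and 579.9 CPM in wild-type DS (log2 fold change -0.32 ± 0.14, adjusted p = 0.0838, edgeR), where the fractions did not overlap. There DESeq2 called Ddn lower (-0.33, adjusted p = 0.0168, DESeq2). In knockin DS it had 549.6, 553 and 566 against 461, 568 and 646 CPM, with heavy replicates 2 and 3 above every whole lysate (log2 fold change -0.033 ± 0.13, adjusted p = 0.894, edgeR).

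Ppp1r9b encodes spinophilin, which holds protein phosphatase 1 on the actin of spines. It was below its whole lysate in 12 of 12 heavy libraries, with a median ratio of 0.761, and the fractions did not overlap in any of the 4 sets. In wild-type Acb it had 513, 443 and 468 against 421, 358 and 322 CPM (log2 fold change -0.42 ± 0.14, adjusted p = 0.0252, edgeR). In knockin Acb it had 487, 574 and 443 against 422, 254 and 264 CPM, the largest difference of the 4 (-0.70 ± 0.18, adjusted p = 0.00645, edgeR). In the DS it had 546, 554 and 643 against 472, 396 and 433 CPM in wild-type mice (-0.42 ± 0.14, adjusted p = 0.0244, edgeR) and 549, 497 and 469 against 345, 427 and 436 CPM in knockin mice (-0.36 ± 0.13, adjusted p = 0.0246, edgeR). All 4 differences had the same direction but none was independent of single libraries. The call was lost in wild-type Acb without heavy replicate 3 (-0.34) or total replicate 1 (-0.37), in knockin Acb without total replicate 2 (-0.61), in wild-type DS without heavy replicate 3 (-0.42), total replicate 2 (-0.46) or total replicate 3 (-0.34) and in knockin DS without heavy replicate 1 (-0.27), total replicate 1 (-0.28), total replicate 2 (-0.37) or total replicate 3 (-0.39).

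The Shank genes encode the scaffolds that lie deepest in the postsynaptic density and join Dlgap proteins and Homer to the actin of the spine. Shank3 was lower in the heavy polysomal fraction in 12 of 12 lysates, with a median ratio of 0.707. In wild-type DS it stood at 92.3, 109 and 127 CPM in whole lysates and 64.1, 60.1 and 73.8 CPM in heavy polysomal fractions, with no overlap (log2 fold change -0.73 ± 0.17, adjusted p = 0.00145, edgeR), and this call was kept with any 1 library left out. In wild-type Acb it stood at 109.7, 85.4 and 72.4 against 74.4, 61.2 and 63.2 CPM, where whole lysate replicate 3 overlapped the heavy libraries (-0.48 ± 0.17, adjusted p = 0.0305, edgeR). That call was lost without heavy replicate 2 (-0.43), heavy replicate 3 (-0.45), total replicate 1 (-0.31) or total replicate 2 (-0.52). In knockin Acb the values were 93.6, 94.6 and 96.1 against 69.0, 51.3 and 69.0 CPM (-0.61 ± 0.18, adjusted p = 0.0164, edgeR) and the call was lost without heavy replicate 2 (-0.48). In knockin DS they were 102, 97.7 and 91.1 against 71.4, 78.3 and 84.9 CPM, which did not overlap but missed the threshold (-0.35 ± 0.15, adjusted p = 0.0729, edgeR), and passed it without heavy replicate 3 (-0.41). DESeq2 also called Shank3 lower there (-0.34, adjusted p = 0.0361, DESeq2).

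Shank1 was lower in the heavy polysomal fraction of 11 of 12 lysates, with a median ratio of 0.667, and its clearest difference was in knockin DS. There it stood at 86.5, 72.8 and 81.8 CPM in whole lysates and 54.8, 49.4 and 40.0 CPM in heavy polysomal fractions (-0.78 ± 0.16, adjusted p = 0.000128, edgeR), with no overlap and kept in all fits with a library left out. In wild-type DS it had 78.6, 89.8 and 90.6 against 61.2, 67.8 and 59.3 CPM (-0.46 ± 0.17, adjusted p = 0.0401, edgeR), which did not overlap, but the call was lost without heavy replicate 1 (-0.45), heavy replicate 3 (-0.42), total replicate 1 (-0.52), total replicate 2 (-0.43) or total replicate 3 (-0.42). In the Acb its libraries spread more. Knockin Acb had 69.3, 73.0 and 43.6 against 47.3, 38.6 and 26.2 CPM (-0.76 ± 0.22, adjusted p = 0.0177, edgeR), lost without heavy replicate 3 (-0.57), total replicate 1 (-0.68) or total replicate 2 (-0.64). Wild-type Acb had 71.4, 49.2 and 40.6 against 43.3, 35.05 and 42.3 CPM and missed the threshold (-0.47 ± 0.19, adjusted p = 0.069, edgeR), with whole lysate replicate 3 lying among the heavy libraries. It passed when lysates were paired (-0.44 ± 0.18, adjusted p = 0.046, edgeR, adjusted p from 0.0374 to 0.293 over the alternatives) and without total replicate 3 (-0.64), but without total replicate 1 it shrank to -0.22.

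Shank2, the least abundant member, was called in the DS only, while the difference between regions itself was tested apart. Its values were 37.4, 49.9 and 42.7 against 14.7, 27.9 and 33.8 CPM in wild-type DS (-0.76 ± 0.24, adjusted p = 0.0173, edgeR) and 47.3, 48.5 and 53.0 against 28.6, 33.6 and 22.1 CPM in knockin DS (-0.86 ± 0.19, adjusted p = 0.000265, edgeR). In both the fractions did not overlap. The wild-type call was lost without heavy replicate 1 (-0.50), total replicate 2 (-0.64) or total replicate 3 (-0.77), while the knockin call was kept in all such fits. In the Acb it had 51.3, 28.9 and 23.5 against 29.1, 22.7 and 34.4 CPM in wild-type (-0.33 ± 0.23, adjusted p = 0.343, edgeR) and 37.4, 47.7 and 34.5 against 27.5, 30.8 and 28.8 CPM in knockin mice (-0.48 ± 0.21, adjusted p = 0.117, edgeR). Wild-type replicate 1 held the highest whole lysate, and without it the log2 fold change was 0.0761.

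Dlg4 and Dlgap3 did not share the lower level in heavy polysomal fractions. Dlg4 encodes PSD-95, the main scaffold under glutamate receptors, and was higher in the heavy polysomal fraction in 9 of 12 lysates, with a median ratio of 1.07. In knockin DS it had 755, 705 and 639.7 CPM in whole lysates and 754, 1074 and 1091 CPM in heavy polysomal fractions (0.44 ± 0.13, adjusted p = 0.00593, edgeR), and this rise was called with any 1 library left out. Replicate 1 showed nearly equal values in both, and replicates 2 and 3 lay well above all whole lysates. In wild-type Acb Dlg4 had 587, 592 and 589.6 against 759, 683 and 629 CPM, without overlap, where 22.9% of genes lay higher without overlap, but it missed the threshold (0.18 ± 0.13, adjusted p = 0.369, edgeR). Wild-type DS gave 755, 766 and 1048 against 1164, 813 and 1059 CPM (0.24 ± 0.15, adjusted p = 0.277, edgeR), which overlapped, and of the fits with a library left out only that without heavy replicate 2 called it (0.37), with values from 0.12 (without heavy replicate 1) to 0.41 (without total replicate 3). In knockin Acb the direction was the opposite, with 554, 639.5 and 615 against 599, 487 and 408 CPM and heavy replicate 1 within the range of the whole lysates (-0.30 ± 0.16, adjusted p = 0.202, edgeR).

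Dlgap3 encodes SAPAP3, the protein between PSD-95 and the Shanks, whose mRNA is the dendritic one of its family. It was below its whole lysate in 6 of 12 heavy libraries and above in the other 6. Its values were 118, 97.9 and 78.7 against 111, 123 and 88.8 CPM in wild-type Acb and 147, 172 and 187 against 158, 168 and 159.7 CPM in wild-type DS. The fractions overlapped in every set. The log2 fold changes were 0.073 ± 0.16 in wild-type Acb, -0.17 ± 0.19 in knockin Acb, -0.059 ± 0.15 in wild-type DS and 0.091 ± 0.14 in knockin DS, with adjusted p from 0.6 to 0.838 (edgeR), and no fit with a library left out called it.

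The members with long coding sequences were compared with other genes of like length, because heavy polysomal fractions held fewer reads of long mRNAs in all 4 sets. In wild-type Acb the median log2 fold change was 0.48 over genes with under 1 kb of coding sequence, 0.07 from 1 to 2 kb, -0.27 from 2 to 3 kb, -0.53 from 3 to 5 kb and -0.85 over 5 kb (genes with at least 50 reads on average). The corresponding medians in knockin DS were 0.50, 0.03, -0.39, -0.63 and -0.94, and over 5 kb the medians were -0.77 in knockin Acb and -0.85 in wild-type DS. Map2 and the 3 Shank genes, all over 5 kb, had log2 fold changes of -0.65 to -0.33 in wild-type Acb and -0.86 to -0.35 in knockin DS, and in none of the 4 sets was any of them below the median of its class. Camk2a, by contrast, belongs to a class with a median near 0. Only 2.28% of genes with 1 to 2 kb of coding sequence were lower than Camk2a in wild-type Acb, 2.35% in wild-type DS, 1.5% in knockin DS and 9.27% in knockin Acb. For Ddn and Ppp1r9b, in the class of 2 to 3 kb, 40.2% and 39.8% of their class were lower in wild-type Acb and 13.1% and 11.6% in knockin Acb, but 50.2% and 42.6% in wild-type DS and 74.5% and 52.1% in knockin DS.

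**Figure D3:**
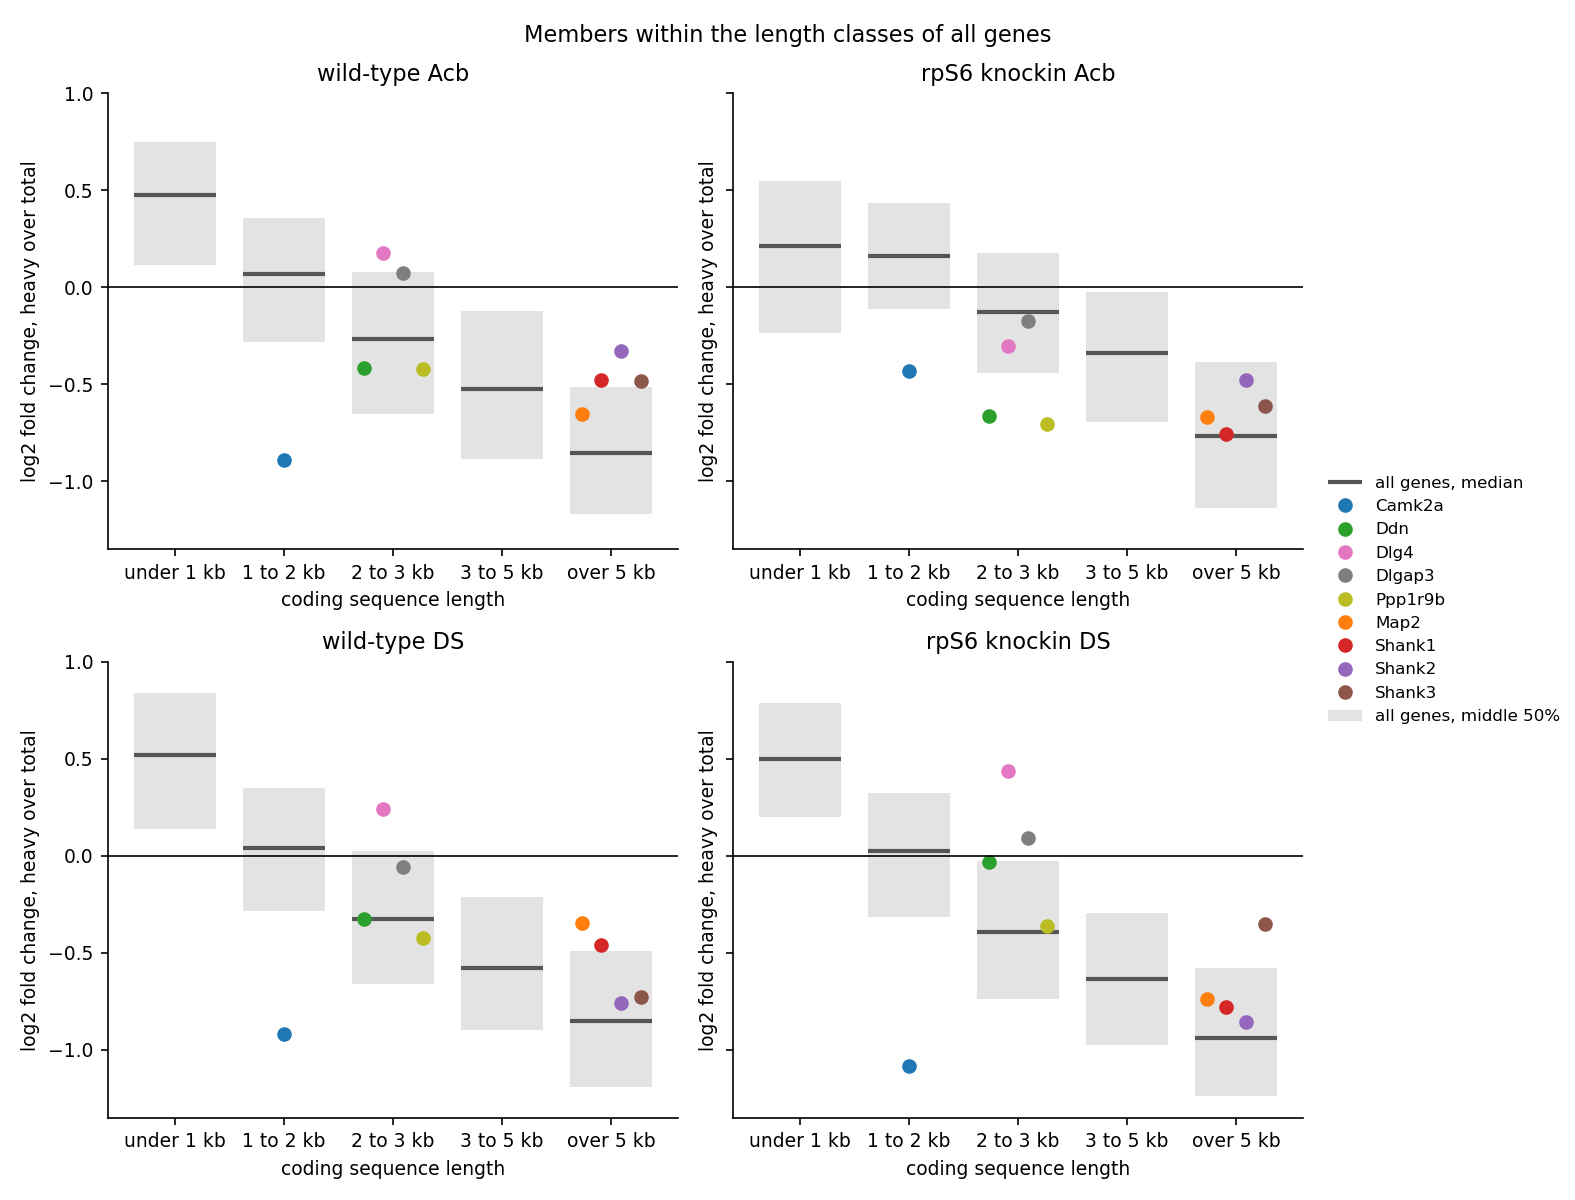
Log2 fold change of heavy polysomal fractions against whole lysates in the 4 sets, by class of coding length (under 1, 1 to 2, 2 to 3, 3 to 5 and over 5 kb), with the median of all genes of a class and the 9 members by name. Medians fall from 0.48 to -0.85 in wild-type Acb, Camk2a lies far below its class, and Map2 and the Shank genes lie at or above theirs.

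When a trend on coding length was removed from each library before the fit, Camk2a was still lower in all 4 sets, with log2 fold changes of -0.95 ± 0.13 in wild-type Acb, -0.63 ± 0.15 in knockin Acb, -0.90 ± 0.14 in wild-type DS and -1.07 ± 0.10 in knockin DS (adjusted p = 1.73e-06, 0.0068, 1.48e-06 and 6.44e-11, edgeR). Ddn and Ppp1r9b stayed lower in knockin Acb (-0.65 and -0.61) and were not called elsewhere. Values for knockin Acb, here and by class of coding length, include the lysate that stood apart and were not computed without it. No Shank gene was called lower in any set, and Shank3 was called higher in knockin DS (0.48 ± 0.15). Map2 was called higher in wild-type DS (0.46 ± 0.14) and in no other set. Dlg4 was called higher in wild-type Acb (0.37 ± 0.12), wild-type DS (0.57 ± 0.15) and knockin DS (0.79 ± 0.12), and Dlgap3 in knockin DS (0.59 ± 0.14). With this setting 17.1% of genes were called in wild-type Acb, 12.7% in knockin Acb, 15.7% in wild-type DS and 16.4% in knockin DS, and the members' medians were 0.18, -0.12, 0.058 and 0.10. By direction, 1490 of 14991 genes were lower and 1072 higher in wild-type Acb, and 1152 of 14751 lower and 724 higher in knockin Acb. In wild-type DS 988 of 14620 were lower and 1305 higher, and in knockin DS 1339 of 14827 lower and 1092 higher.

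Genes with like places in the neuron were counted in 5 lists of 61 genes, chosen by role. Of these, 21 were lower and 12 higher in heavy polysomal fractions of wild-type Acb, 15 and 6 in knockin Acb, 24 and 12 in wild-type DS and 28 and 12 in knockin DS. Over all genes, 12.9% were lower and 13.0% higher in wild-type Acb, 9.50% and 7.70% in knockin Acb, 11.5% and 12.8% in wild-type DS and 14.8% and 13.8% in knockin DS. With the coding length trend removed, 14 of the 61 were lower and 8 higher in wild-type Acb, 10 and 8 in knockin Acb, 11 and 10 in wild-type DS and 18 and 10 in knockin DS. The counts over all genes by direction with that setting are those given above. Without heavy replicate 3 of knockin Acb, 18 were lower and 4 higher in that set. Among 20 other scaffolds of the postsynaptic density, 7 were lower and 2 higher in wild-type Acb, 4 and 1 in knockin Acb, 9 and 2 in wild-type DS and 8 and 0 in knockin DS, with median log2 fold changes of -0.27, -0.094, -0.38 and -0.34. These medians became 0.14, -0.033, 0.18 and 0.17 with the length trend removed, where 2 were lower and 4 higher in wild-type Acb, 3 and 4 in knockin Acb, 3 and 4 in wild-type DS and 4 and 3 in knockin DS. Tanc1 (-1.41 ± 0.29, adjusted p = 0.00057, edgeR) and Baiap2, the actin adaptor IRSp53 (-1.07 ± 0.16, adjusted p = 2.07e-05, edgeR), fell most in wild-type Acb, while Homer1, which binds metabotropic glutamate receptors (0.56 ± 0.15, adjusted p = 0.00563, edgeR), and Agap2 (0.41 ± 0.13, adjusted p = 0.0221, edgeR) rose.

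Of the 5 other genes of CaMKII and its inhibitors, 2 were lower and 0 higher in wild-type Acb, 2 and 0 in knockin Acb, 1 and 0 in wild-type DS and 4 and 0 in knockin DS (medians -0.49, -0.15, -0.40 and -0.57, and -0.41, -0.19, -0.34 and -0.46 with the length trend removed). Camk2n1, an inhibitor of the kinase, had log2 fold changes of -0.99, -1.58, -0.87 and -0.58 in these sets, and Camk2b, the partner subunit of Camk2a, had -0.53, -0.15, -0.35 and -0.58. Both were called lower in wild-type Acb (adjusted p = 1.14e-05 and 0.00419, edgeR). Of 12 regulators of spine actin and protein phosphatase 1, 2 were lower and 6 higher in wild-type Acb, 1 and 3 in knockin Acb, 4 and 6 in wild-type DS and 5 and 6 in knockin DS (medians 0.35, 0.15, 0.39 and 0.30). With the length trend removed, 0 were lower and 1 higher in wild-type Acb, 0 and 1 in knockin Acb, 0 and 3 in wild-type DS and 2 and 3 in knockin DS. Kalrn, a large exchange factor (-0.87 ± 0.16, adjusted p = 0.000148, edgeR), and Synpo, a protein of the spine apparatus (-0.65 ± 0.16, adjusted p = 0.00355, edgeR), were lower in wild-type Acb, and Cfl1, which encodes the actin-severing cofilin (1.15 ± 0.13, adjusted p = 3.48e-07, edgeR), and Ppp1cc, a catalytic subunit of the phosphatase (0.64 ± 0.14, adjusted p = 0.000852, edgeR), were higher.

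Of 10 other genes of microtubule-associated proteins, 4 were lower and 3 higher in wild-type Acb, 4 and 2 in knockin Acb, 4 and 3 in wild-type DS and 4 and 5 in knockin DS (medians -0.28, -0.32, -0.24 and 0.13, and -0.38, -0.25, -0.19 and -0.091 with the length trend removed). Map1a (-1.76 ± 0.15, adjusted p = 6.86e-09, edgeR) and Map1b (-1.69 ± 0.14, adjusted p = 7.26e-09, edgeR), which encode very large proteins, were lower in wild-type Acb by more than Map2, and the tubulin-binding stathmins Stmn1 (1.07 ± 0.13, adjusted p = 1.19e-06, edgeR) and Stmn2 (0.78 ± 0.14, adjusted p = 0.000121, edgeR) were higher. Of 14 other mRNAs known in dendrites, 6 were lower and 1 higher in wild-type Acb, 4 and 0 in knockin Acb, 6 and 1 in wild-type DS and 7 and 1 in knockin DS (medians -0.26, -0.087, -0.28 and -0.43, and -0.11, -0.081, 0.024 and -0.19 with the length trend removed). Grin1, a subunit of the NMDA receptor, fell by 1.10 on the log2 scale in wild-type Acb and Eef2, the elongation factor, by 1.01, and Gria2, a subunit of the AMPA receptor, by 0.51 (adjusted p = 1.64e-05, 3.77e-06 and 0.00805, edgeR). Nrgn, the dendritic mRNA of neurogranin, rose (0.69 ± 0.14, adjusted p = 0.000438, edgeR). These lists were not tested as sets.

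The regions were compared within each genotype and kind of RNA, and all 4 comparisons share libraries with the ones above. In whole lysates of wild-type mice, 4 members were lower in Acb than in DS and 0 were higher, where 12.7% of genes were called and 6.15% were lower. Camk2a had 850.5 to 1121 CPM in Acb and 1582 to 1736 CPM in DS (-0.75 ± 0.10, adjusted p = 5.47e-07, edgeR). Dlgap3 (-0.74 ± 0.14, adjusted p = 0.000125), Shank1 (-0.65 ± 0.16, adjusted p = 0.00488) and Dlg4 (-0.51 ± 0.11, adjusted p = 0.000965) were also lower (edgeR). The libraries of the regions did not overlap for these 4, Ddn and Ppp1r9b, 6 members in all, where 14.9% of genes lay lower without overlap. Camk2a, Dlg4 and Dlgap3 were called with any 1 library left out, but Shank1 was lost without Acb replicate 2 (-0.58). Map2, Shank2 and Shank3 had log2 fold changes of -0.052, -0.28 and -0.26 and were not called. In bulk tissue, fewer cells of a type and less RNA per cell cannot be told apart.

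The same 4 genes were lower in Acb in heavy polysomal fractions of wild-type mice, where 8.15% of genes were called and 3.43% were lower (762 genes higher and 554 lower, but 670 higher and 1229 lower with the coding length trend removed, which moved the median of all genes from 0.031 to -0.12). The log2 fold changes were -0.69 ± 0.16, adjusted p = 0.0108, for Camk2a, -0.63 ± 0.17, adjusted p = 0.0294, for Shank1, -0.58 ± 0.16, adjusted p = 0.0325, for Dlgap3 and -0.54 ± 0.16, adjusted p = 0.0476, for Dlg4 (edgeR). These calls rested on few libraries. Leaving out 1 library left 0 to 2 of them, Camk2a was kept in 4 of 6 such fits, Dlg4 and Dlgap3 in 1 and Shank1 in 0. Camk2a was lost without Acb replicate 1 (-0.63) or Acb replicate 3 (-0.69). The ranges of 6 members lay lower in Acb without overlap, where 11.5% of genes did. Heavy to total ratios were also compared between the regions in wild-type mice, as an interaction over 12 libraries, and 0 members were called, with 0 of 16684 genes called by edgeR (0% of genes), 767 genes and 0 members at an unadjusted p under 0.05, and 1 gene called by DESeq2. The difference between regions in the members' heavy to total ratios was thus not detectable with 3 lysates a group, including that of Shank2.

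In knockin mice, Camk2a was the only member called lower in Acb in whole lysates, at 941 to 1190.4 CPM against 1584 to 1818 CPM in DS (-0.63 ± 0.085, adjusted p = 5.3e-07, edgeR), where 10.9% of genes were called and 6.03% were lower. In heavy polysomal fractions 3 members were lower in Acb, where 18.6% of genes were called and 10.7% were lower, and 4 lay lower without overlap (Ddn, Dlg4, Dlgap3 and Shank3), where 18.3% of genes did. Dlg4 had 408 to 599 CPM in Acb and 754 to 1091 CPM in DS (-0.95 ± 0.18, adjusted p = 0.0011, edgeR). Ddn (-0.69 ± 0.19, adjusted p = 0.0135) and Dlgap3 (-0.65 ± 0.21, adjusted p = 0.034) were lower as well (edgeR). For Camk2a the difference was smaller than its SE (-0.0025 ± 0.18), with 1026 CPM in Acb replicate 3 above every DS library. That value rested on the lysate that stood apart, since without its heavy library the difference was -0.23 ± 0.16, adjusted p = 0.429 (edgeR), and over the fits with any 1 library left out it ran from -0.23 to 0.11. Dlg4 was kept with any 1 library left out, Ddn was lost without Acb replicate 2 (-0.57) or DS replicate 3 (-0.57) and Dlgap3 without Acb replicate 2 (-0.51), Acb replicate 3 (-0.52), DS replicate 2 (-0.51) or DS replicate 3 (-0.69). The values without the lysate that stood apart are -0.83 ± 0.18, adjusted p = 0.00214, for Dlg4, -0.62 ± 0.19, adjusted p = 0.0287, for Ddn and -0.52 ± 0.20, adjusted p = 0.0962, for Dlgap3 (edgeR).

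Markers of other cells moved with region. All 7 markers of cortical excitatory neurons were lower in Acb in each of the 4 comparisons, where 3.43% to 10.7% of genes were lower. They summed to 90.4 to 265 CPM in Acb libraries and 890.4 to 1267 CPM in DS libraries. How much of the members' RNA came from such neurons was not measured. Of the 8 medium spiny neuron markers, 4 were lower and 2 higher in Acb in whole lysates of wild-type mice (median log2 fold change -0.33). Over all genes, 12.7% were called in that comparison and 6.15% were lower. In these lysates they summed to 3784 to 4100.3 CPM in Acb and 4165 to 4709 CPM in DS, without overlap. Of 7 oligodendrocyte markers, 4 were higher in Acb in the same lysates, and they summed to 3627 to 4199 CPM in Acb and 2798 to 3465 CPM in DS. Astrocyte markers summed to 2338 to 2851 CPM in Acb and 1702 to 1822 CPM in DS in these lysates. Over both genotypes and kinds of RNA they summed to 1762 to 3040 CPM in Acb and 1040.2 to 2143 CPM in DS. Microglial markers summed to 149 to 274 and 92.9 to 199 CPM over the same libraries, and choroid plexus markers to 28.8 to 74.6 and 11.1 to 20.0 CPM. Their part in the differences between regions was not tested.

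**Figure D4:**
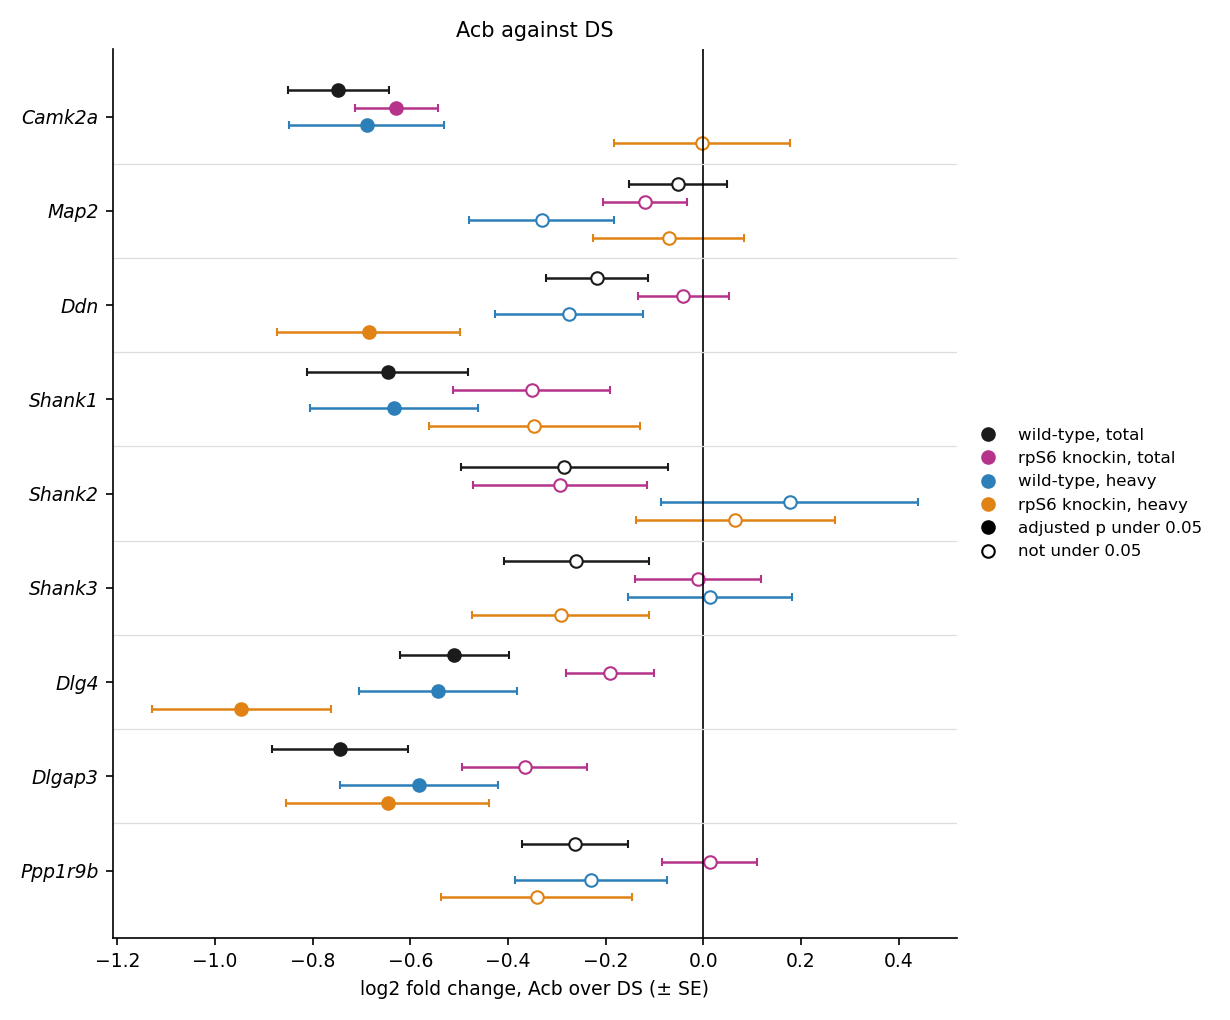
Log2 fold change of Acb against DS for the 9 members in the 4 comparisons of genotype and kind of RNA, with bars of 1 SE from edgeR and filled points where the adjusted p was under 0.05. Filled points lie below 0, from -0.51 for Dlg4 in whole lysates of wild-type mice to -0.95 for Dlg4 in heavy polysomal fractions of knockin mice, and Camk2a in knockin heavy polysomal fractions lies at 0.

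Genotypes were compared within each region and kind of RNA, each comparison sharing its libraries with the ones above. In none of the 4 was a member called by edgeR, where 0% of 16227 genes were called in heavy polysomal fractions of the Acb, 0.0440% in those of the DS, 0.00650% in whole lysates of the Acb and 0.122% in those of the DS. In the first of these, 3518 genes had an unadjusted p under 0.05 and DESeq2 called 1090 (6.72%). Over these 4, the 2 comparisons of translational efficiency and the comparison of genotype effects between regions, 10 of 63 values of members had an unadjusted p under 0.05, where between 2.96% and 21.7% of genes had one, by comparison.

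In heavy polysomal fractions of the Acb, Camk2a had 488, 581 and 538 CPM in wild-type and 666, 708 and 1026 CPM in knockin mice. The knockin libraries all lay above the wild-type ones (11.3% of genes lay higher without overlap), with replicate 3 far above the others. The log2 fold change was 0.62 ± 0.18 (unadjusted p = 0.0026, adjusted p = 0.106, edgeR), and over the alternatives the adjusted p ran from 0.0149 to 0.138, under 0.05 with DESeq2, with no filter beyond 1 read and with all 24 libraries in 1 fit. Without knockin replicate 3 it was 0.39 ± 0.14, adjusted p = 0.406 (edgeR). Dlg4 went the other way in the same libraries, with 629 to 759 CPM in wild-type and 408 to 599 CPM in knockin mice, without overlap (13.7% of genes lay lower so). Its log2 fold change was -0.44 ± 0.16 (unadjusted p = 0.0166, adjusted p = 0.149, edgeR), and -0.32 ± 0.15, adjusted p = 0.463, without knockin replicate 3.

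In whole lysates of the DS, 4 members had an unadjusted p under 0.05, all lower in knockin mice, where 1415 of 15601 genes (9.07%) had one. Dlgap3 had 147, 172 and 187 CPM in wild-type and 143, 116 and 117 CPM in knockin DS (-0.44 ± 0.12, unadjusted p = 0.000364, adjusted p = 0.113, edgeR). Ddn had 627, 659 and 721 and 549.6, 553 and 566 CPM (-0.29 ± 0.087, unadjusted p = 0.00191, adjusted p = 0.206, edgeR). The genotypes did not overlap for either, where 6.31% of genes lay lower without overlap. Dlgap3 had an adjusted p under 0.05 with no filter beyond 1 read and with DESeq2, which called 0.609% of genes (0.0311 to 0.806 over the alternatives) and without wild-type replicate 1 (-0.54), and Ddn with DESeq2 (0.0278 to 0.814 over the alternatives). Dlg4 and Ppp1r9b had log2 fold changes of -0.31 ± 0.10 and -0.22 ± 0.091 (unadjusted p = 0.00231 and 0.0191, adjusted p = 0.213 and 0.426, edgeR). Without wild-type replicate 3 they shrank to -0.14 and -0.14. Of the 61 genes of the lists, 2 were called in these lysates and 0 in the other 3 comparisons: Gria2 was higher in knockin DS (0.41 ± 0.091, adjusted p = 0.0437, edgeR) and Nrgn lower (-0.48 ± 0.077, adjusted p = 0.000908, edgeR).

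In 2 of the 4 comparisons, heavy polysomal fractions in the DS and whole lysates in the Acb, 0 members reached an unadjusted p under 0.05. Map2 and Shank1 lay lower in knockin than in wild-type heavy polysomal fractions of the DS without overlap, where 5.39% of genes did, at 699 to 740.0 against 799.5 to 846 CPM for Map2 and 40.0 to 54.8 against 59.3 to 67.8 CPM for Shank1. Members' log2 fold changes ran from -0.37 to 0.26 there and from -0.090 to 0.19 in whole lysates of the Acb.

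Translational efficiency, the heavy to total ratio, was compared between genotypes over the 12 libraries of a region. Of 9 members 0 were called in either region, where edgeR and DESeq2 called 0% of genes in both and 1992 genes in the Acb and 811 in the DS had an unadjusted p under 0.05 (edgeR). In the Acb, Camk2a had a difference of 0.47 ± 0.22 on the log2 scale (unadjusted p = 0.0405, adjusted p = 0.399, edgeR), with heavy to total ratios of 0.435, 0.645 and 0.632 in wild-type and 0.627, 0.594 and 1.09 in knockin lysates. Only replicate 3 of knockin Acb lay above the wild-type range. Without that lysate the difference was 0.15 ± 0.20, adjusted p = 0.93 (edgeR). Dlg4 had a difference of -0.47 ± 0.20 (unadjusted p = 0.0259, adjusted p = 0.356, edgeR), with ratios of 1.29, 1.15 and 1.07 against 1.08, 0.762 and 0.663, and -0.34 ± 0.20, adjusted p = 0.784, without that lysate. In the DS, Map2 had -0.36 ± 0.18 (unadjusted p = 0.0487, adjusted p = 1.0, edgeR). As a comparison chosen after the data were seen, the genotype effect in heavy polysomal fractions was also compared between regions, where 0.00592% of genes and 0 members were called. Camk2a differed by 0.72 ± 0.25 between the Acb and the DS (unadjusted p = 0.00742, adjusted p = 0.192, edgeR), and by 0.49 ± 0.23, adjusted p = 0.569, without heavy replicate 3 of knockin Acb.

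**Figure D5:**
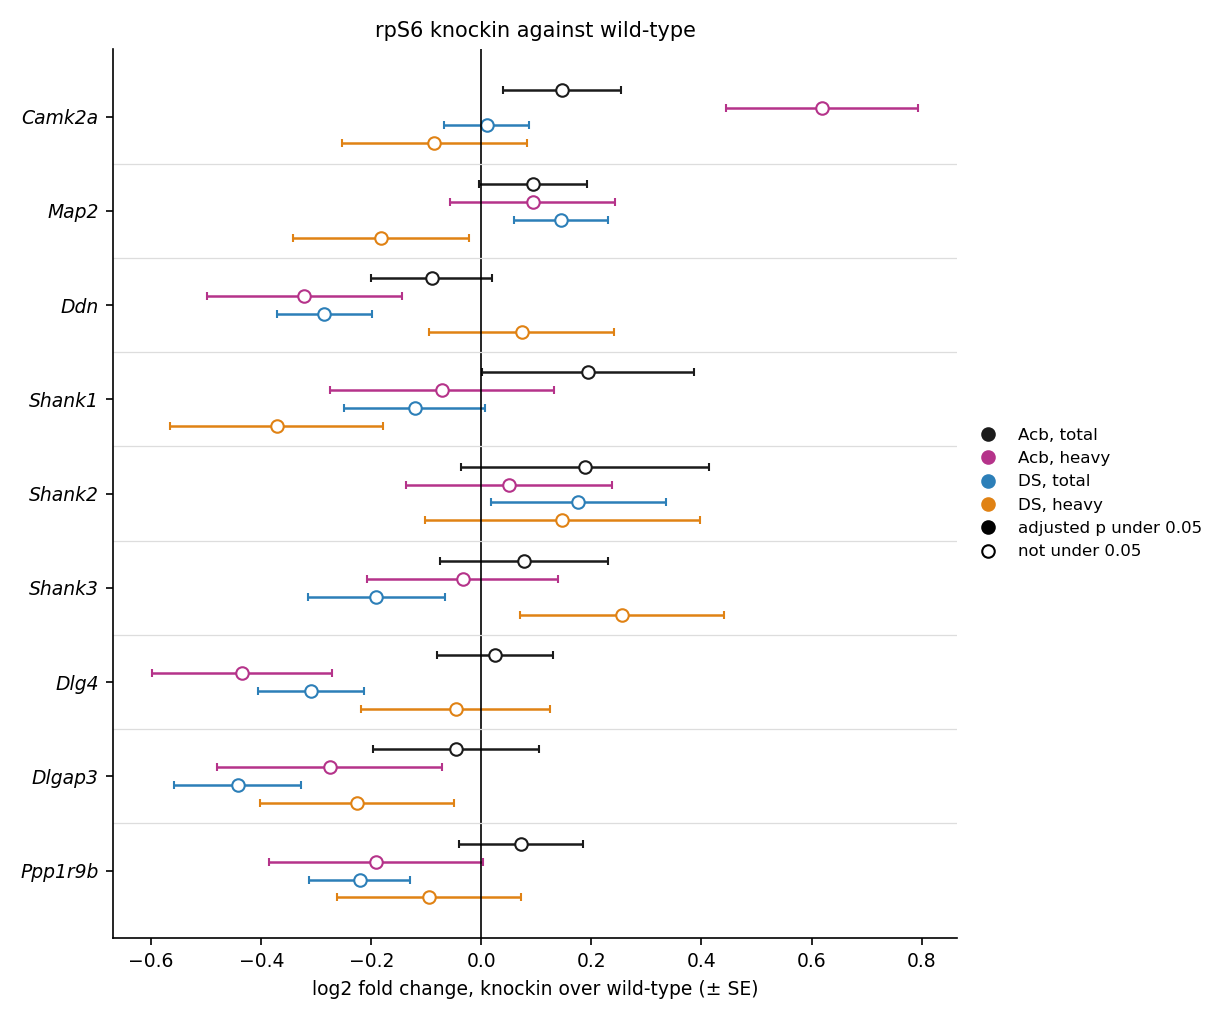
Log2 fold change of knockin against wild-type mice for the 9 members in heavy polysomal fractions and whole lysates of both regions, with bars of 1 SE from edgeR. No point has an adjusted p under 0.05, and the largest differences are 0.62 for Camk2a and -0.44 for Dlg4 in heavy polysomal fractions of the Acb and -0.44 for Dlgap3 in whole lysates of the DS.

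The members' patterns over the 8 groups were also set beside those of other genes, as a description. On centred log2 CPM, the mean of the 9 members was followed most closely by Shank1 (Pearson r = 0.981), Ppp1r9b (0.949) and Camk2a (0.897) and least by Dlgap3 (0.650) and Dlg4 (0.435), all of which are part of that mean. Among 11970 other genes with at least 50 reads on average, the 5 most like it over these 8 group means were Ppp4r4 (r = 0.991), Ryr2 (0.979), Bsn (0.979), Ubtd2 (0.975) and Pitpnb (0.974). The 8 means share libraries with every comparison given here.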

How the data were processed

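RNA from heavy polysomal fractions and whole lysates was sequenced from poly-A selected, stranded libraries of single-end reads. The authors aligned the reads to mm10 with TopHat 2.0.13 and Bowtie 2.2.3, kept those with at most 3 mismatches, assigned them to genes with HTSeq 0.6.1p1 (union mode, opposite strand) and deposited these raw counts without normalization. Bacterial reads led to repeated sequencing runs, per the methods, and the table holds 1 column per library. Depth sets the precision: 9280589 to 34703044 assigned reads per library.

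From the counts, TMM factors, log2 fold changes, SE and p-values were computed with edgeR 4.0.16 (quasi-likelihood F test of glmQLFit, legacy settings; R 4.3.3, limma 3.58.1) on genes with at least 15 reads summed over the libraries compared, with Benjamini-Hochberg adjustment over all genes tested and a threshold of 0.05. CPM were scaled by TMM over all 24 libraries. Coding and transcript lengths came from GENCODE M21 (mm10), where 20427 genes had a coding length. The scripts were tested on simulated counts. Figures used Python 3.11.15, pandas 2.3.3 and matplotlib 3.10.9.

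The members and lists were chosen with earlier results of these data known. All 9 members were named in every comparison. Of the lists, the 2 genes with the largest and the 2 with the smallest log2 fold change in wild-type Acb were named, among those called there with at least 50 reads on average, and the 5 genes most like the members' mean by Pearson r over the 8 groups. Gria2 and Nrgn were named for the genotype comparison after their values were seen.

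Heavy and total libraries of a lysate come from the same mice, per the labels and methods, so their numbers pair them. Residuals of the 12 pairs correlated with r from -0.0376 to 0.0743, 0 above 0.1. Alternatives were DESeq2's size factors, filterByExpr, no filter beyond 1 read, DESeq2 1.42.0, all 24 libraries in 1 fit, removal of a trend on coding length (loess, span 0.5), the replicate block, leaving out Bc1 and leaving out each library (for ratios each lysate) in turn. The comparison of genotype effects between regions was added after seeing the data. The number of mice pooled per replicate is stated differently in different places of the study, and p-values measure the spread between these pools.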

Additional observations from a re-analysis of the deposited data

How the results depend on the processing

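Counts are of called members out of 9. Heavy against total, the main counts of 5 in wild-type Acb, knockin Acb and wild-type DS (all lower) became 2 (1 lower, 1 higher), 3 (all lower) and 3 (1 lower, 2 higher) with the coding length trend removed, and the first became 3 with all 24 libraries in 1 fit. In knockin DS, 5 lower and 1 higher became 1 lower and 3 higher with the trend removed. Between genotypes, 0 became 1 in Acb heavy libraries with no filter beyond 1 read, with DESeq2 and with 24 libraries, and in DS whole lysates 1 with no filter, 2 with DESeq2 and 1 with the replicate block. Between regions in knockin mice, 3 became 5 in heavy libraries with the length trend removed, where the main fit called 18.6% of genes. In whole lysates 1 became 2 with no filter, by Dlgap3 (-0.37, adjusted p = 0.0456, edgeR), where the main fit called 10.9%. Shares over all genes with these settings are not given, so neither rise is read as a result about the members. With a library left out, counts were 2 to 6 in wild-type Acb, 2 to 5 in knockin Acb, 2 to 7 in wild-type DS and 5 to 7 in knockin DS, heavy against total; 0 to 0 between genotypes and for translational efficiency, except 0 to 1 in DS whole lysates; and between regions 0 to 2 (wild-type heavy), 3 to 5 (wild-type total), 1 to 4 (knockin heavy) and 1 to 1 (knockin total), and 0 to 0 for both comparisons of differences.

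Signs turned with the length trend removed in wild-type Acb for Map2 (0.0019), Shank1 (0.28), Shank2 (0.36) and Shank3 (0.18), in knockin Acb for Shank2 (0.076) and Dlgap3 (0.0203), in wild-type DS for Map2 (0.46), Shank1 (0.41), Shank3 (0.0576) and Dlgap3 (0.40), and in knockin DS for Ddn (0.26, and 0.0049 with 24 libraries), Map2 (0.0873), Shank1 (0.10), Shank3 (0.48) and Ppp1r9b (0.0267). With a library left out, values crossed 0 in wild-type Acb for Shank2 (-0.53 to 0.0761) and Dlgap3 (-0.0625 to 0.22), in wild-type DS for Dlgap3 (-0.15 to 0.0223) and in knockin DS for Ddn (-0.15 to 0.0821) and Dlgap3 (-0.0443 to 0.22). Camk2a between regions in knockin heavy libraries, near 0, ran from -0.23 to 0.11 so and was 0.0026 with no filter. The cause was not tested.

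The replicate block changed 4 of 65 calls of members, all gained: the 2 given for paired lysates, Dlgap3 between genotypes in DS whole lysates (-0.44, adjusted p = 0.0342, edgeR) and Map2 between regions in wild-type heavy libraries (-0.34, adjusted p = 0.0372, edgeR). Across genotypes and regions, samples share only a number, and residuals of 24 such pairs correlated with r from -0.294 to 0.319, 3 above 0.1.

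Over all genes, removing the length trend took heavy against total calls from 4158 to 2562 in wild-type Acb, 3797 to 2293 in wild-type DS and 4557 to 2431 in knockin DS. Leaving out 1 library took the 2704 calls in knockin Acb to as few as 1720 (without heavy replicate 2) and the 1316 between regions in wild-type heavy libraries to 663 (without Acb replicate 3) and 804 (without Acb replicate 2), and the 1693 in knockin whole lysates to 1049 (without DS replicate 2); between genotypes such fits called 0 to 56 genes. Between genotypes, calls in Acb heavy libraries went from 0 to 549 (no filter), 1090 (DESeq2), 813 (24 libraries), 4 (length) and 98 (replicate block), in DS heavy libraries from 7 to 1 (filterByExpr), 37, 17, 0, 11 and 31, in Acb whole lysates from 1 to 0 (filterByExpr), 2 (no filter), 0 (24 libraries), 2 (length) and 5 (block), and in DS whole lysates from 19 to 2 (filterByExpr), 66, 95, 0, 9 and 71. For translational efficiency they went from 0 to 107 (no filter) and 106 (replicate block) in the Acb and to 5 and 6 in the DS. Between regions in wild-type heavy libraries they went from 1316 to 2247 (replicate block), for heavy to total ratios between regions from 0 to 5 (no filter), 1 (DESeq2) and 7 (block), and for genotype effects between regions from 1 to 0 (filterByExpr), 353 (no filter), 236 (DESeq2), 433 (24 libraries) and 117 (block). Some alternatives thus call genes where edgeR as run here calls few, so the 0 members called between genotypes depends on the setting for Camk2a, Dlgap3 and Ddn.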
